A study of Mus musculus with 6 samples.

Results

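The CC chemokine ligands described here are 10 mouse genes fixed by name: Ccl2, Ccl3, Ccl4, Ccl5, Ccl6, Ccl7, Ccl8, Ccl9, Ccl11 and Ccl24. They were found by gene identifier among 17909 identifiers, and all 10 were listed in at least 1 library. RNA was sequenced from 6 libraries of primary hepatic stellate cells, liver pericytes that store vitamin A, after 1 day in culture. The 3 HAS2_Tg libraries (replicates 4, 5 and 6) came from mice in which a promoter of smooth muscle actin (ASMA) drives human HAS2, a synthase of the matrix sugar hyaluronan. The 3 Has2_KO libraries (replicates 7, 8 and 9) came from mice in which Lrat-Cre and loxP sites delete Has2 in stellate cells. Per the labels, both genotypes were C57BL/6 males aged 24 weeks. Their cells were perfused out with collagenase and pronase, banded on Nycodenz, depleted of macrophages with Cd11b microbeads, left to attach for 4 h and kept a further 14 h in medium with 10% serum. No wild-type library was analysed here, so each difference sets gain against loss of the synthase and does not say which genotype departs from normal cells. Nothing in the labels ties the libraries to separate mice, so the p-values measure the spread between these libraries only, which may be technical.

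CC chemokines are small secreted proteins whose first conserved pair of cysteines lies side by side in the chain. They bind sugar chains on cells and matrix, and they draw leukocytes through G protein-coupled receptors of the Ccr family. Activated stellate cells are known to secrete Ccl2, and resident macrophages and endothelial cells of the liver also make CC ligands.

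The coding stretch around the adjacent cysteines is printed for 9 of the genes because it is the feature that puts them in 1 family. Each line runs 5′ to 3′ on the coding strand of a GENCODE M21 transcript on GRCm38 and holds 36 bases, and the capitals mark the 2 adjacent cysteine codons.
Ccl2: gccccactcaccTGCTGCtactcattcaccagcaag
Ccl4: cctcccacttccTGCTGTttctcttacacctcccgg
Ccl5: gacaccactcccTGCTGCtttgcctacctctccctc
Ccl6: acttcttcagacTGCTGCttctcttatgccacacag
Ccl7: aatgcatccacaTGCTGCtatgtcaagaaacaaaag
Ccl8: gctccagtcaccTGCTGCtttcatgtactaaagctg
Ccl9: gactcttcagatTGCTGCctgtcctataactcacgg
Ccl11: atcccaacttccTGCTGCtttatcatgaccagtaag
Ccl24: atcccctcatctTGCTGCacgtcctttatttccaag

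Outside this motif the genes differ. Aligned coding sequences were closest for Ccl3 and Ccl4, at 69.8% identical bases, followed by Ccl7 and Ccl11 at 67.9% and Ccl6 and Ccl9 at 66.7%. Ccl2 and Ccl5 were lowest by this measure, at 43.4% (199 identical bases in 459 aligned columns). Columns with gaps count as unlike in these shares. The coding sequence of Ccl2 is 444 bases long and that of Ccl5 273, so the order of pairs depends on length as well as on bases. For 9 of the 10 genes no stretch of 50 bases was shared with a transcript of any other gene. Ccl9 shared 109 of its 2957 such stretches (3.7%) with other genes, and its expected counts were not whole numbers.

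Total expected counts ran from 11961726 to 12231327 in HAS2_Tg libraries and from 12364822 to 12423220 in Has2_KO libraries. Has2 itself had 847, 889 and 835 expected counts in HAS2_Tg libraries, against 1 in each Has2_KO library. Reads of the human transgene and of mouse Has2 were not told apart here. One feature goes against the labels. Xist, the RNA that coats the inactive X chromosome, had 3, 6 and 4 counts in HAS2_Tg libraries and 5219, 5527 and 5701 in Has2_KO libraries, although the mice are labelled male. The Y-linked gene Ddx3y was counted in every library, with 746, 990 and 1059 counts in HAS2_Tg libraries and 642, 644 and 701 in Has2_KO libraries. The level of Xist divides the libraries as the genotype does, so what goes with each cannot be told apart in any result that follows.

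All members with enough counts to be tested were lower in HAS2_Tg cells. The test was edgeR's quasi-likelihood test with Benjamini-Hochberg adjustment over 13014 genes, a gene was called at an adjusted p under 0.05, and log2 fold changes are HAS2_Tg minus Has2_KO. The count filter kept 7 of the 10 members, and all 7 were called lower, while 20.5% of all tested genes were called lower and 20.2% higher (40.7% in either direction). A log2 fold change of -3 or less was reached by 6 of the 7 and by 3.19% of all tested genes. The groups did not overlap, with HAS2_Tg lower, for 9 of the 10 members, against 26.9% of all tested genes, and 25.2% of tested genes did not overlap with HAS2_Tg higher. These counts are no support on their own, because Ccl3 and Ccl4 passed the filter through Has2_KO libraries alone and had to differ, Ccl5 reached it in 2 of the 3 HAS2_Tg libraries, and Ccl8, Ccl11 and Ccl24 did not pass. In bulk RNA, fewer cells of a type and less RNA per cell cannot be told apart.

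Ccl2, Ccl7 and Ccl8 lie in 1 cluster on chromosome 11 and draw leukocytes of the monocyte line and T cells. Ccl2, the chief ligand of Ccr2 (chr11:82035571-82037453, plus strand), had 347, 378 and 363 expected counts in HAS2_Tg libraries and 7975, 7985 and 7823 in Has2_KO libraries. Every HAS2_Tg library lay far below every Has2_KO library, and replicates were close together. On the length-scaled FPKM scale its level was 38.4 ± 1.82 in HAS2_Tg cells and 818.1 ± 8.79 in Has2_KO cells (SD, n = 3 each). The log2 fold change was -4.24 (SE 0.08, edgeR adjusted p = 2.15e-14).

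Ccl7 encodes another ligand of Ccr2 (chr11:82045712-82047525, plus strand). Its expected counts were 258, 190 and 226 in HAS2_Tg libraries and 3995, 4560 and 3594 in Has2_KO libraries, again with no overlap. It was lower in HAS2_Tg cells by a log2 fold change of -3.96 (SE 0.12, edgeR adjusted p = 5.75e-12). Ccl8, which in mice acts on Ccr8 (chr11:82115185-82116799, plus strand), had 1, 0 and 0 counts in HAS2_Tg libraries and 9, 10 and 12 in Has2_KO libraries. The groups did not overlap, but these few counts put the gene under the filter. Its ratio of group sums was 26.8-fold lower in HAS2_Tg, with an exact 95% interval of 4.46 to 1090 that covers counting error only.

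Ccl3, Ccl4 and Ccl5 encode inflammatory ligands that draw monocytes and T cells, and Ccl3 and Ccl5 bind Ccr1. Ccl3 (chr11:83647844-83649355, minus strand) had 1, 1 and 0 counts in HAS2_Tg libraries and 75, 90 and 76 in Has2_KO libraries. Ccl4 (chr11:83662584-83664683, plus strand) had no count in any HAS2_Tg library and 27, 28 and 23 in Has2_KO libraries. Both were thus at or near the floor in HAS2_Tg cells and low but present in each Has2_KO library. For Ccl3 the ratio of group sums was 104-fold lower in HAS2_Tg (exact 95% interval 28.5 to 864, edgeR adjusted p = 6.89e-09). With 3 counts over the HAS2_Tg group put in place of 0 as a floor, Ccl4 was 22.4-fold lower, which is not an exact bound (edgeR adjusted p = 3.58e-06). RefSeq draws Ccl4 across Ccl3 on the opposite strand, and the sources used here do not say whether reads were counted by strand.

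Ccl5 (chr11:83525778-83530518, minus strand) showed the smallest change of the tested members. It had 5, 11 and 13 counts in HAS2_Tg libraries and 32, 41 and 32 in Has2_KO libraries. The groups stood apart, yet the HAS2_Tg libraries spread more widely relative to their mean than the Has2_KO libraries did. Its log2 fold change was -1.63 (SE 0.31, edgeR adjusted p = 0.000612).

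Ccl6 and Ccl9 are ligands of Ccr1 that neighbour each other on the minus strand of chromosome 11. Ccl6 (chr11:83587882-83593087) had 13, 11 and 12 counts in HAS2_Tg libraries and 3243, 3380 and 3038 in Has2_KO libraries. It was the third most abundant member in Has2_KO cells and close to the floor in HAS2_Tg cells. Its log2 fold change of -7.84 (SE 0.13, edgeR adjusted p = 5.59e-15) was the most negative among the tested members and ranked 36 of 13014 genes. Ccl9 (chr11:83572919-83578636) had 37.78, 32.91 and 23.32 expected counts in HAS2_Tg libraries and 322.12, 387.82 and 352.76 in Has2_KO libraries. All HAS2_Tg values lay below all Has2_KO values, with a log2 fold change of -3.28 (SE 0.16, edgeR adjusted p = 3.24e-10).

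Ccl11 and Ccl24 are eotaxins, ligands of Ccr3 that draw eosinophils, and both were scarce. Ccl11 (chr11:82057823-82062955, plus strand) had 2, 5 and 0 counts in HAS2_Tg libraries and 2, 4 and 3 in Has2_KO libraries. It was the one member whose groups overlapped, and a difference was not detectable at this depth. Ccl24 (chr5:135569937-135573049, minus strand) had no count in HAS2_Tg libraries and 7, 13.02 and 7 in Has2_KO libraries. With the same floor of 3 counts put in place of 0, it was 7.77-fold lower in HAS2_Tg. Without the count filter Ccl24 and Ccl8 passed edgeR's test (adjusted p = 7.57e-05 and 9.59e-05), and Ccl11 did not (log2 fold change -0.14, SE 0.85, adjusted p = 0.929). In that fit 16.2% of 17887 genes were called lower and 15.2% higher.

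**Figure D1:**
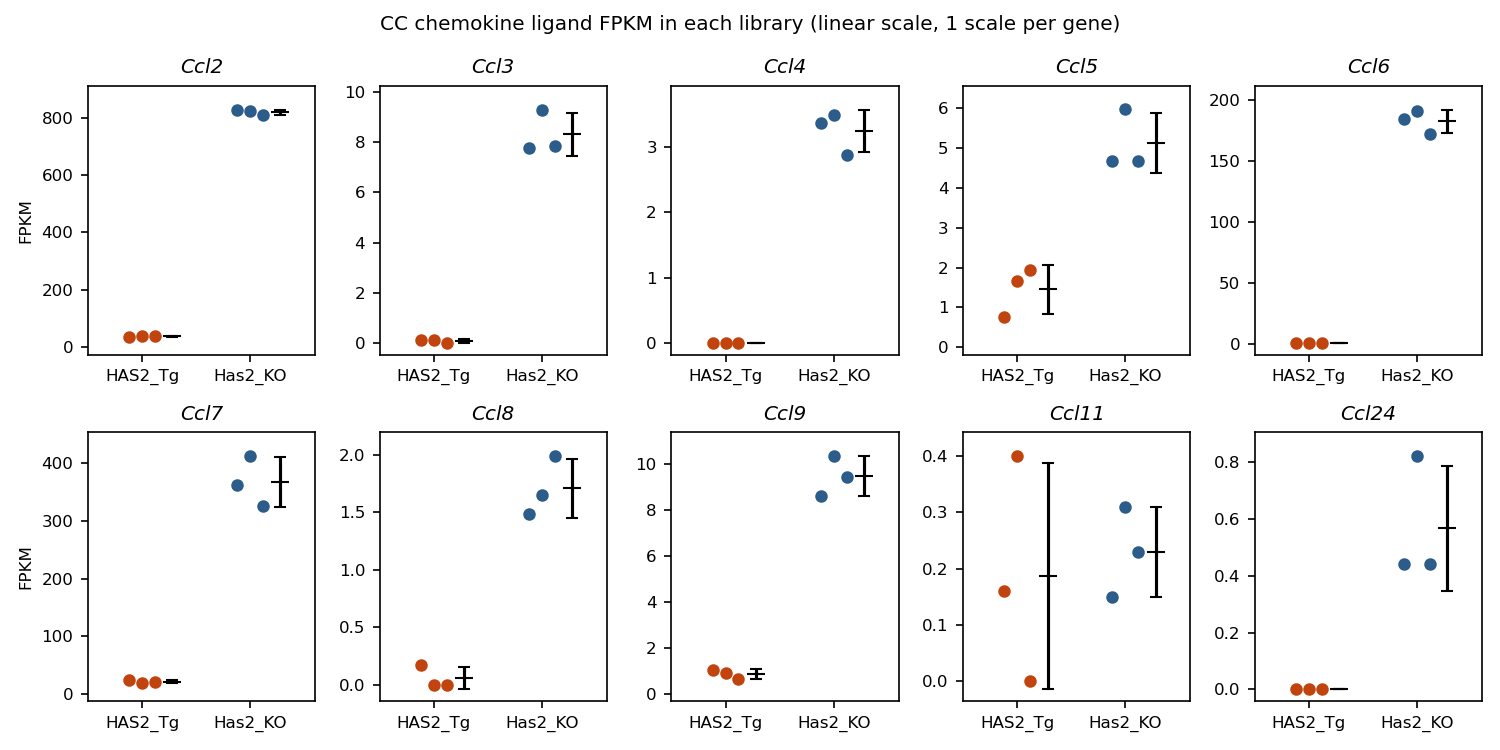
FPKM of the 10 CC chemokine ligands in each library, HAS2_Tg left of Has2_KO in each panel; points are libraries and lines with bars are the mean and SD of 3. The y axis differs between panels, and Ccl11 is the panel in which the 2 groups overlap.

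**Figure D2:**
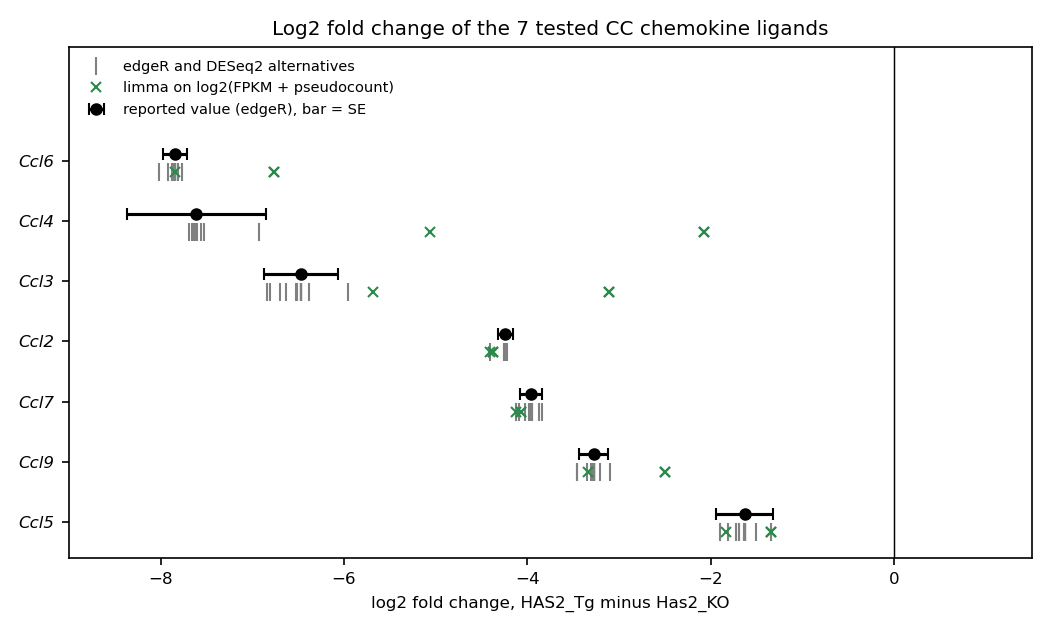
Log2 fold change, HAS2_Tg minus Has2_KO, with its SE, for the 7 tested members. Points with bars are the values reported here and small marks the alternative settings; the reported values run from -7.84 for Ccl6 to -1.63 for Ccl5, and every mark lies below 0.

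By FPKM, Ccl2 and Ccl7 led in both genotypes. In HAS2_Tg cells Ccl2 led at 38.4 ± 1.82 FPKM and Ccl7 followed at 20.9 ± 3.12 (SD, n = 3). Ccl5, Ccl9 and Ccl6 came next at mean FPKM of 1.45, 0.86 and 0.7, and each of the 3 overlapped its neighbour in that order. The other 5 lay at 0.187 FPKM or below and could not be ordered. Has2_KO cells had Ccl7 at 367.3 ± 43.2 and Ccl6 at 182.7 ± 9.46 FPKM (SD, n = 3). There Ccl9 and Ccl3 overlapped at mean FPKM of 9.47 and 8.31, and Ccl5, Ccl4, Ccl8, Ccl24 and Ccl11 followed without overlap of neighbouring ranges.

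Added together, the 10 members had 643.7 ± 18.8 counts in HAS2_Tg libraries and 15720 ± 769 in Has2_KO libraries (SD, n = 3 each). Scaled for library size (TMM) this was 56.7 ± 2.57 CPM in HAS2_Tg cells and 1195 ± 54.5 CPM in Has2_KO cells, or 21.1-fold lower in HAS2_Tg. The make-up of that sum differed too. Ccl6 supplied 1.86% ± 0.105 of the members' counts in HAS2_Tg cells and 20.5% ± 0.184 in Has2_KO cells. Ccl2 supplied 56.4% ± 3.98 in HAS2_Tg cells and 50.5% ± 1.97 in Has2_KO cells.

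**Figure D3:**
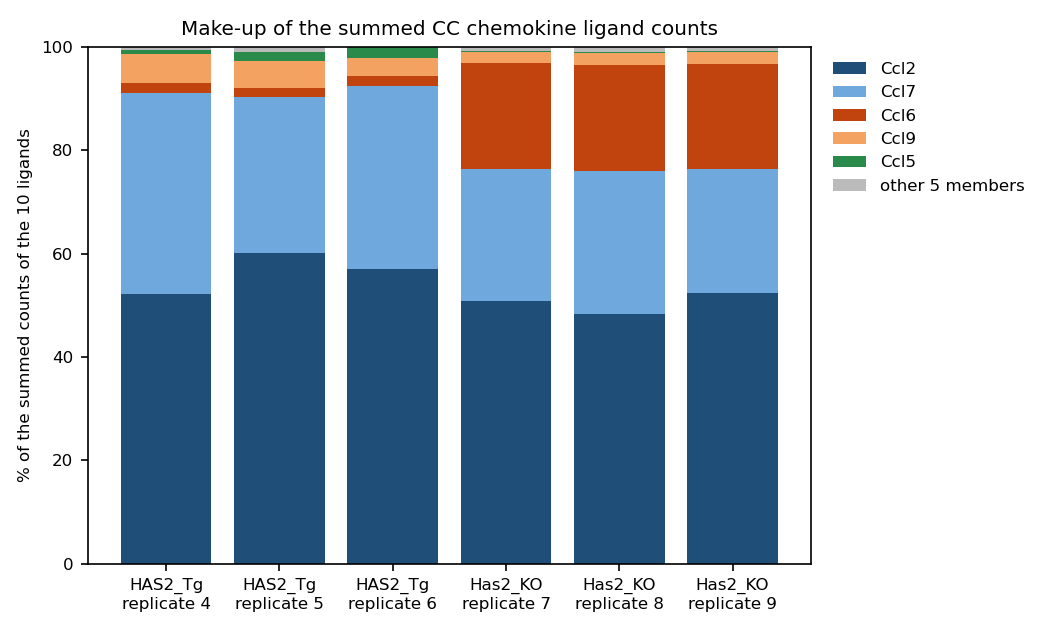
Share of the members' summed counts taken by each ligand in each library, HAS2_Tg left of Has2_KO. Ccl2 takes the most in every library, and Ccl6 fills 1.86% of the sum in HAS2_Tg cells, against 20.5% in Has2_KO cells.

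Ratios to Ccl2 within a library do not depend on how libraries are scaled. For every 100 Ccl2 counts, Ccl6 had 3.31 counts in HAS2_Tg cells and 40.6 in Has2_KO cells. Ccl9 had 8.64 in HAS2_Tg cells and 4.47 in Has2_KO cells. Ccl5 had 2.67 in HAS2_Tg cells and 0.441 in Has2_KO cells. These 3 ratios did not overlap between the groups, being lower in every HAS2_Tg library for Ccl6 and higher in every one for Ccl9 and Ccl5. The log2 ratio of Ccl7 to Ccl2 overlapped, at -0.43, -0.99 and -0.68 in HAS2_Tg libraries and -1.0, -0.81 and -1.12 in Has2_KO libraries. In 2-sided exact permutation tests of 4 ratios the p was 0.1 for Ccl5, Ccl6 and Ccl9, the smallest that 3 against 3 can give, and 0.2 for Ccl7. Adjusted over the 4 tests these were 0.133 and 0.2, so none passed a threshold of 0.05.

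Libraries of 1 genotype differed in which members they held most of. Among Has2_KO libraries, replicate 8 held the highest CPM for 8 members (Ccl3, Ccl4, Ccl5, Ccl6, Ccl7, Ccl9, Ccl11 and Ccl24), and replicate 7 and replicate 9 each led for 1. Its summed ligand level was 1251 CPM, against 1193 CPM in replicate 7 and 1142 CPM in replicate 9. In HAS2_Tg libraries the sum was 59.6, 54.9 and 55.7 CPM, and no replicate led for more than 5 members.

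The receptors were mostly scarce in these cells. Of 16 listed receptors and scavengers, 15 had a count in some library and 6 were tested. Of these 6, 1 rose, 2 fell and 3 were not called, against 20.2% higher and 20.5% lower over all tested genes. Their median log2 fold change was 0.07, against -0.01 over all tested genes. Ccr1, the receptor of Ccl3, Ccl5, Ccl6 and Ccl9, had 0, 1 and 1 counts in HAS2_Tg libraries and 73, 96 and 102 in Has2_KO libraries (log2 fold change -6.64, SE 0.42, edgeR adjusted p = 8.02e-09). This receptor gene was thus as near the floor in HAS2_Tg cells as its ligand Ccl3.

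Ackr1, a scavenger that binds chemokines without signalling, was called higher on overlapping values, with 59, 53 and 27 counts in HAS2_Tg libraries and 17, 28 and 32 in Has2_KO libraries (log2 fold change 1.06, SE 0.30, edgeR adjusted p = 0.0123). That call was lost in 7 of 17 alternatives, among them the 3 limma fits on FPKM (adjusted p = 0.0516 to 0.117) and the fits without HAS2_Tg replicate 5 (log2 fold change 0.97, edgeR adjusted p = 0.0553) and without Has2_KO replicate 7 (0.84, edgeR adjusted p = 0.0642). Ccrl2 (log2 fold change 0.13), Ackr3 (0.66) and Ackr4 (0.00) were not called. Ccr2, the receptor of Ccl2 and Ccl7, had at most 3.98 counts in a HAS2_Tg library and 10.18 in a Has2_KO library. Ackr2, a scavenger of inflammatory CC ligands, had at most 4 counts in a HAS2_Tg library and 17 in a Has2_KO library. Ccr3, Ccr4, Ccr6, Ccr7, Ccr9, Ccr10 and Ccr1l1 had under 10 counts in every library, and Ccr8 was not listed in any library.

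Other CC ligands were called in both directions. Of 12, 10 were listed and 4 tested: 1 rose, 1 fell and 2 were not called, with a median log2 fold change of 0.21. Over all tested genes, 20.2% were called higher and 20.5% lower. The summed level of these other ligands was 25.0 to 30.1 CPM in HAS2_Tg libraries and 25.5 to 31.9 CPM in Has2_KO libraries. Ccl19, which guides T cells and dendritic cells through Ccr7, had 71, 39 and 51 counts in HAS2_Tg libraries and 39, 31 and 32 in Has2_KO libraries (log2 fold change 0.87, SE 0.24, edgeR adjusted p = 0.00922). Its call was lost in 2 of 17 alternatives, limma on log2(FPKM + 1) without a filter (adjusted p = 0.068) and the edgeR test against a fold of 1.5 (adjusted p = 0.281). Ccl28, a mucosal ligand, lay just past the threshold in the other direction (log2 fold change -0.32, SE 0.12, edgeR adjusted p = 0.0496). That call was lost in 9 of 18 alternatives. Among them were the fits without HAS2_Tg replicate 5 or 6 and without Has2_KO replicate 8 or 9 (edgeR adjusted p = 0.124, 0.131, 0.0656 and 0.273), upper-quartile factors (edgeR adjusted p = 0.0541) and DESeq2 (adjusted p = 0.121).

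Ccl25 (log2 fold change -0.46) and Ccl27a (0.75) were not called, although each passed in some alternatives. Ccl25 was called lower in 3, with total counts (edgeR adjusted p = 0.0324) and in both filtered limma fits (adjusted p = 0.0194 and 0.0251). Ccl27a was called higher in 5, without HAS2_Tg replicate 5 or Has2_KO replicate 9 (edgeR adjusted p = 0.0424 and 0.0333) and in the 3 limma fits (adjusted p = 0.0102 to 0.0333). Ccl21b had 7, 12 and 11 counts in HAS2_Tg libraries and 0, 0 and 1 in Has2_KO libraries, and without the count filter it was called higher (log2 fold change 4.65, SE 0.86, edgeR adjusted p = 2.11e-05). The mouse genome is known to carry near-identical Ccl21 copies, and whether reads were split among them was not tested. Ccl12, which lies inside the Ccl2 cluster, had no count in HAS2_Tg libraries and 2, 2 and 4 in Has2_KO libraries. Ccl1, Ccl17, Ccl20 and Ccl22 had at most 2 counts in any library, and Ccl21a and Ccl26 were listed in none.

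Cytokines and NF-kB signalling are known to switch many CC ligands on. All 29 listed inducers and NF-kB regulators were tested, and 20 fell, 0 rose and 9 were not called (median log2 fold change -0.76). Of all tested genes, 20.5% were called lower. Il1a, the cytokine interleukin-1 alpha, had 1 count in each HAS2_Tg library and 120, 125 and 97 in Has2_KO libraries (ratio of sums 98.4-fold lower in HAS2_Tg, exact 95% interval 33.4 to 480). Il1b and Tnf, singled out after their values were seen, summed to 0 and 2 counts in HAS2_Tg libraries and to 73 and 102 in Has2_KO libraries. Both were called lower by edgeR. With 3 counts put in place of 0 as a floor, Il1b was 21.0-fold lower, which is not an exact bound. Tnf was 44.0-fold lower by group sums (exact 95% interval 11.9 to 369). Of the list, 3 genes, Il1a, Il1b and Tnf, averaged under 1 CPM in HAS2_Tg cells. They passed the count filter through Has2_KO libraries alone and could hardly be called higher.

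Nfkbiz and Tlr2 had the smallest adjusted p of the list. Nfkbiz, a nuclear inhibitor-like partner of NF-kB, averaged 24.5 CPM in HAS2_Tg cells and 95.6 CPM in Has2_KO cells (log2 fold change -1.97, edgeR adjusted p = 2.29e-10). Tlr2, a receptor for bacterial lipoproteins, averaged 3.41 CPM in HAS2_Tg cells and 22.2 CPM in Has2_KO cells (log2 fold change -2.70, edgeR adjusted p = 3.44e-10).

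The interleukin-4 and interleukin-13 arm, which induces eotaxins, was mixed. Of 13 tested genes 3 rose, 6 fell and 4 were not called (median log2 fold change -0.32). Over all tested genes, 20.2% were called higher and 20.5% lower. Postn, the matrix protein periostin, rose to 2648 CPM in HAS2_Tg cells, against 1005 CPM in Has2_KO cells (log2 fold change 1.40). Il33, an alarm cytokine, and Il2rg, the common gamma chain of cytokine receptors, fell (log2 fold changes -2.28 and -2.14). Il4 and Il13 themselves were not listed in any library.

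Of 11 tested proteases that trim chemokines, 8 fell, 1 rose and 2 were not called (median log2 fold change -4.38). The share called lower among all tested genes was 20.5%. Mmp12, the macrophage elastase, averaged 4.02 CPM in HAS2_Tg cells and 285.3 CPM in Has2_KO cells (log2 fold change -6.14). Mmp13, a collagenase, and Mmp3, a stromelysin, also fell (log2 fold changes -6.57 and -6.74).

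Markers of other liver cells moved with the ligands. Of 21 tested macrophage and Kupffer cell markers 20 fell, 0 rose and 1 was not called, and their summed level was 18.6 to 19.6 CPM in HAS2_Tg libraries and 673.5 to 733.8 CPM in Has2_KO libraries. Clec4f and Timd4, which mark Kupffer cells, were at 0 in every HAS2_Tg library. Lyz2, Mpeg1 and Csf1r fell by log2 fold changes of -6.35, -6.32 and -5.37. All 20 sinusoidal endothelial markers fell (median log2 fold change -6.46), with a summed level of 143.1 to 156.3 CPM in HAS2_Tg libraries and 1461 to 1550 CPM in Has2_KO libraries. Cdh5, Mrc1 and Pecam1 had the smallest adjusted p among them (log2 fold changes -7.83, -8.01 and -7.15), and Emcn and Gpihbp1 were at 0 in every HAS2_Tg library. Over all tested genes, 20.5% were called lower and 20.2% higher. Of the tested markers, 16 of the 21 for macrophages and 12 of the 20 for endothelium averaged under 1 CPM in HAS2_Tg cells. Such genes passed the count filter largely through Has2_KO libraries and could hardly be called higher. These counts are thus no support on their own. The part of these cells in the ligands' fall was not tested.

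Shorter marker lists held fewer tested genes. Of the tested markers, 4 of 5 for neutrophils and 2 of 4 for dendritic cells fell. So did 9 of 10 for hepatocytes and 3 of 3 for cholangiocytes, and none rose in these lists. Over all tested genes, 20.5% were called lower and 20.2% higher. Itgax, Clec9a and Zbtb46 of dendritic cells summed to 3, 1 and 312 counts in HAS2_Tg libraries and to 1132, 96 and 328 in Has2_KO libraries, and Zbtb46 was not called. Clec4d, Hdc and Mmp8 of neutrophils summed to 3, 5 and 2 counts in HAS2_Tg libraries and to 227, 246 and 146 in Has2_KO libraries. Alb, Apob and Cyp2e1 of hepatocytes summed to 30, 2 and 39 counts in HAS2_Tg libraries and to 923, 133 and 230 in Has2_KO libraries. Krt8, Krt18 and Sox9 of cholangiocytes summed to 3, 0 and 76 counts in HAS2_Tg libraries and to 119, 120 and 177 in Has2_KO libraries. All of these but Zbtb46 were called lower in HAS2_Tg cells. Under 1 CPM on average in HAS2_Tg cells were 3 of the 5 neutrophil and 2 of the 4 dendritic cell markers. So were 8 of the 10 hepatocyte and 2 of the 3 cholangiocyte markers, and these counts are no support on their own either. The part of these cell types in the ligands' fall was not tested either.

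Summed over the list, neutrophil markers had 30.2 to 35.1 CPM in HAS2_Tg libraries and 49.3 to 52.1 CPM in Has2_KO libraries. Dendritic cell markers had 11.2 to 12.8 CPM in HAS2_Tg libraries and 42.2 to 43.5 CPM in Has2_KO libraries. Hepatocyte markers had 25.4 to 26.2 CPM in HAS2_Tg libraries and 63.2 to 80.2 CPM in Has2_KO libraries. None of these ranges overlapped. Mast cell and eosinophil markers had 1.31 to 1.49 CPM in HAS2_Tg libraries and 56.4 to 61.4 CPM in Has2_KO libraries, nearly all of it from Kit alone, which averaged 1.17 CPM in HAS2_Tg cells and 58.6 CPM in Has2_KO cells. T and NK cell markers had 1.31 to 2.01 CPM in HAS2_Tg libraries and 4.70 to 4.88 CPM in Has2_KO libraries. B and plasma cell markers had 4.10 to 4.58 CPM in HAS2_Tg libraries and 7.89 to 10.0 CPM in Has2_KO libraries. Cholangiocyte markers had 2.51 to 2.88 CPM in HAS2_Tg libraries and 9.40 to 12.7 CPM in Has2_KO libraries, and mesothelial markers 0.0897 to 0.523 CPM in HAS2_Tg libraries and 4.32 to 5.09 CPM in Has2_KO libraries. Of the markers in these lists at 0 in every HAS2_Tg library, 4 reached 4 counts in some Has2_KO library, with 31, 34 and 55 for Krt18, 12, 12 and 13 for Ambp, 9.31, 5 and 8 for Siglecf and 2, 4 and 3 for Cd3e. The others (S100a8, Camp, Nkg7, Klrd1, Flt3, Cpa3, Epcam, Cftr, Gpm6a and Upk3b) were near 0 in both groups, with at most 3 counts in any Has2_KO library.

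The lists of T and NK cells, B and plasma cells, mast cells and eosinophils, and mesothelium had 1 tested gene each (Il7r, Cd22, Kit and Wt1), which fell. Of 3 tested monocyte markers, Fn1 was higher (log2 fold change 1.29), Vcan lower (-1.37) and Plac8 not called (-0.22; called lower without HAS2_Tg replicate 4, edgeR adjusted p = 0.00165), and the list summed to 1616 to 2124 CPM in HAS2_Tg libraries against 849.5 to 866.1 CPM in Has2_KO libraries. Stellate cell identity markers ran the other way: of 21 tested, 18 rose, 0 fell and 3 were not called (median log2 fold change 0.75). Over all tested genes, 20.2% were called higher and 20.5% lower. The labelled cell type was present in both groups. Colec11, Colec10 and Acta2 rose by log2 fold changes of 2.83, 2.79 and 2.30.

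**Figure D4:**
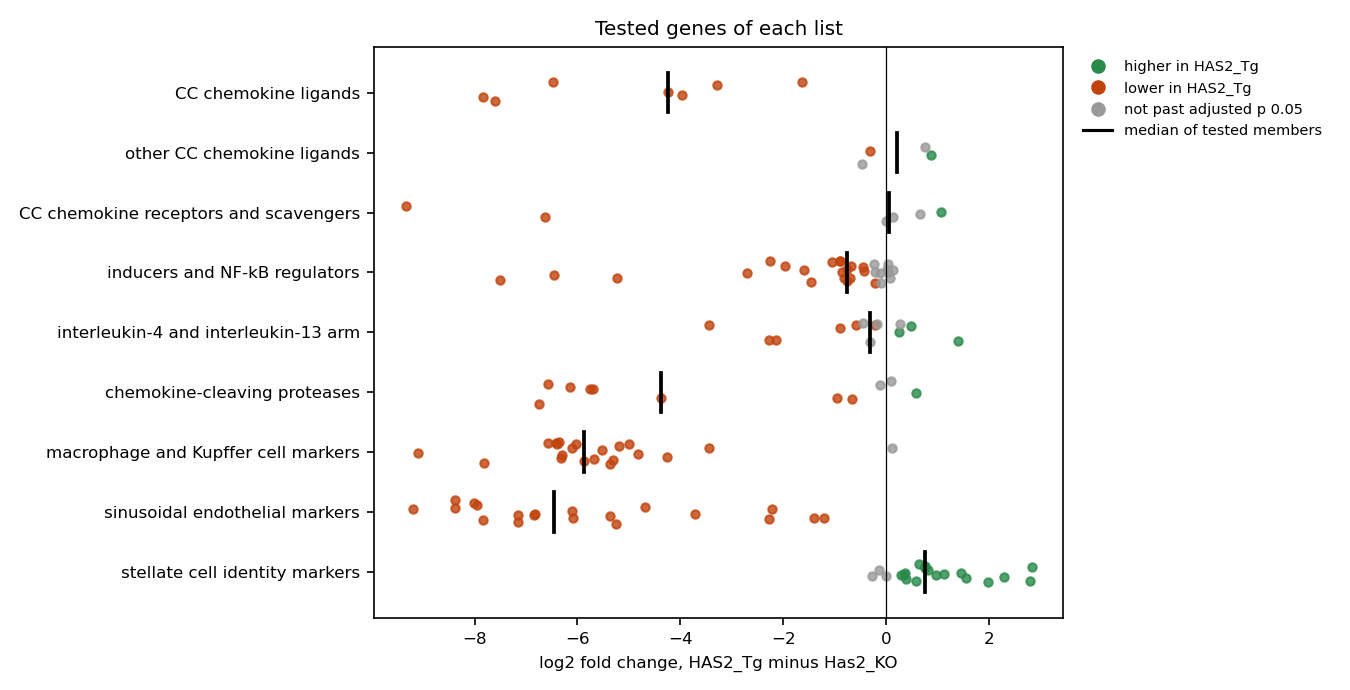
Log2 fold change, HAS2_Tg minus Has2_KO, of each tested gene in 9 lists; points are genes coloured by call and vertical bars are list medians. The 7 tested CC ligands, the 20 endothelial markers and 20 of 21 macrophage markers were lower in HAS2_Tg, and 18 of 21 stellate markers were higher.

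Of the 10 members, 9 lie on chromosome 11 in 2 clusters. The cluster from Ccl2 to Ccl8 spans 81.2 kb and the cluster from Ccl5 to Ccl4 spans 138.9 kb. Within 500 kb of either cluster, 15 other genes were tested, of which 7 fell, 0 rose and the median log2 fold change was -0.28. Over all tested genes, 20.5% were called lower and 20.2% higher. Most of the flanking genes that fell averaged under 1 CPM in HAS2_Tg cells and could hardly be called higher. This count is thus no support on its own. Among the 5 members of the second cluster the median was -6.47, and the 1 other gene tested inside it, E230016K23Rik, was not called (-0.26, edgeR adjusted p = 0.526). The most negative flanking value was that of Wfdc17 (log2 fold change -8.47, SE 0.40) and the most positive that of Taf15 (0.11, not called). Wfdc17 averaged 0.0291 CPM in HAS2_Tg cells and 14.0 CPM in Has2_KO cells, so the size of its value rests on the floor. Over the settings that value ran from -10.44 to -4.98.

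**Figure D5:**
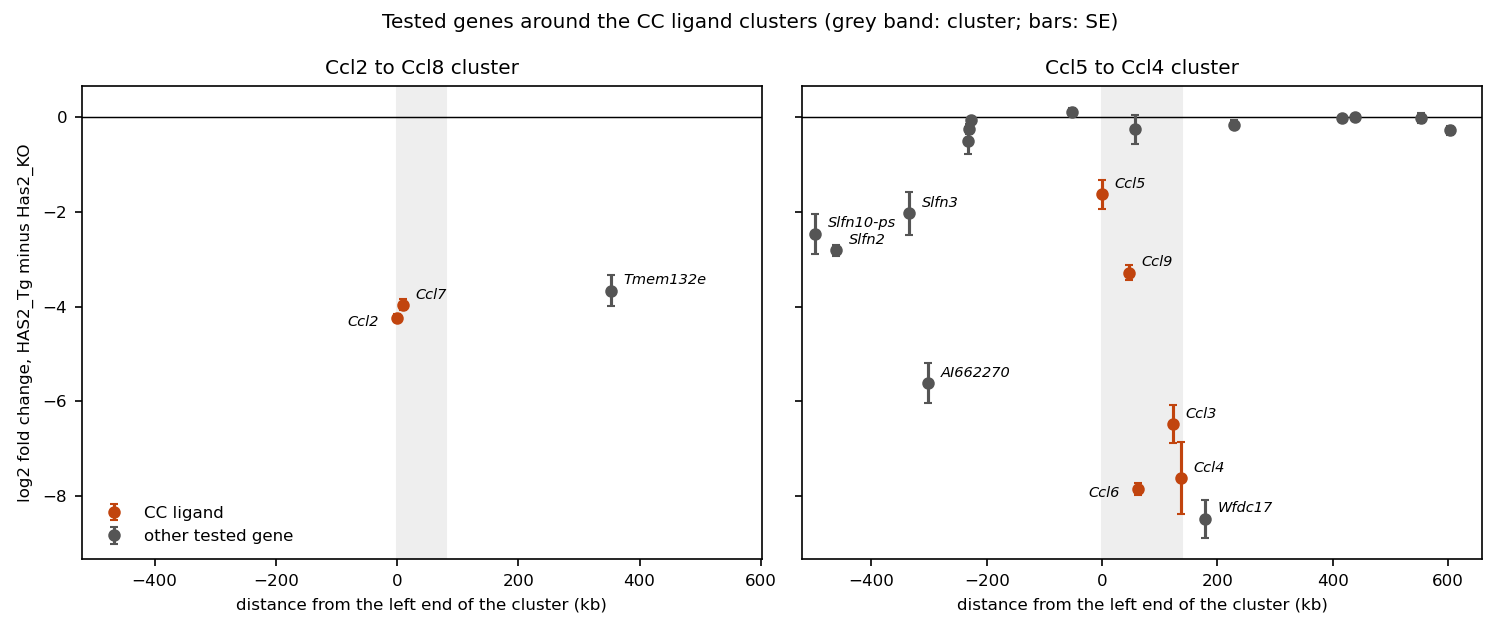
Log2 fold change, HAS2_Tg minus Has2_KO, with its SE, of tested genes by distance from the first base of each cluster. The 7 tested members lie between -7.84 and -1.63, and the flanking genes run from -8.47 (Wfdc17) to 0.11 (Taf15). Wfdc17 was near the floor in HAS2_Tg cells, at 0.0291 CPM.

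The promoters of the neighbours Ccl6 and Ccl9 are printed because these adjacent genes both fell, by different amounts. The RefSeq promoter table on GRCm38.p6 held 4 of the 10 members (Ccl3, Ccl6, Ccl8 and Ccl9). Each line gives the 250 bases before the gene's start on the minus strand, Ccl6 at chr11:83593088-83593337 and Ccl9 at chr11:83578637-83578886. Capitals mark runs of 10 or more bases found in both. The 19 capitals in Ccl9 join 2 runs that overlap there and lie apart in Ccl6.
Ccl6: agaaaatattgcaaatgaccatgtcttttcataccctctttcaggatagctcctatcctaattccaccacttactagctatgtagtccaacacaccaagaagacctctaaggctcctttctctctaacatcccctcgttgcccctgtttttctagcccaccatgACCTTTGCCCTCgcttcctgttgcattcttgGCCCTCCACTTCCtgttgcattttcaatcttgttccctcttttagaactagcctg
Ccl9: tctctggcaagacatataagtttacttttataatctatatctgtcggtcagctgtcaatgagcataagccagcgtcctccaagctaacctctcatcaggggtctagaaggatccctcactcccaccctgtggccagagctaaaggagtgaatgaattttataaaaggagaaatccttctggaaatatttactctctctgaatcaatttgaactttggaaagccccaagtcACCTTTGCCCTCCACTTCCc

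Aligned over 292 columns, these promoters were 50% identical, against 48.1% to 54.2% in the other pairs, which shared no run of 10 bases. The longest shared run was 13 bases. Motifs were sought on both strands: the NF-kB consensus, TGANTCA for AP-1, TATAAA for the TATA box and GAGGAA for the PU.1 core. Ccl9 held 1 NF-kB match, 1 AP-1 match and 3 TATAAA matches, and Ccl6 held none of the 4. Ccl3 held 1 GAGGAA, and Ccl8 held 1 TATAAA and 1 GAGGAA. Among 32851 promoters of the table, 3.9% held the NF-kB motif, 6.7% the AP-1 motif, 12.4% TATAAA and 23.3% GAGGAA. A match is letters in this window and no measure of binding.

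Genes with the most similar profile were sought over the 6 libraries for each tested member, by the root mean square difference of log2(CPM + 1) centred on its mean. The 10 members themselves, and genes with no name or a predicted name (Gm or Rik), were left out of the search. Nearest to Ccl2 were Prkch (0.055), Tsix (0.086) and Cd53 (0.088), where Tsix lies antisense to Xist and its reads cannot be told apart from Xist without strand. Among the genes searched, Ccl6 had no close neighbour: Cdh5 came first at 0.241, then Atp6v0c-ps2 at 0.396 and Mrc1 at 0.406.

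Nearest to Ccl7 were Esm1 (0.11), C3ar1 (0.114) and Slc7a2 (0.141), and to Ccl9 were Ly9 (0.12), Ptges (0.13) and Serpina3f (0.135). For Ccl3 they were Ncf1 (0.066), Igsf6 (0.078) and Clec4d (0.079). Fzd6 (0.051), Zswim5 (0.076) and Itpripl2 (0.08) were nearest to Ccl5. The added 1 CPM shrinks low values, so near profiles need not mean like fold changes. The log2 fold changes of Prkch, Tsix and Cd53 were -7.52, -10.74 and -7.21, against -4.24 for Ccl2, and that of Ly9 was -6.72, against -3.28 for Ccl9. Ccl4 lay nearest to Gfpt2 (0.043), whose log2 fold change was -1.59, then Ccdc88b (0.055) and Kcnj6 (0.062).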

How the data were processed

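RNA was measured in 6 libraries of mouse hepatic stellate cells, 3 per genotype. The deposited tables give expected counts and FPKM per gene; per the submitters' processing notes they come from RSEM and build mm10, with the RSEM version not given in the sources used here. The authors' FPKM values are scaled by gene length and library size. A gene absent from a library's table was set to 0, which filled 12658 values. Of 17909 identifiers, 17857 were named from a RefSeq table of GRCm38.p6.

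Expected counts were rounded and tested with edgeR 4.0.16 (filterByExpr with a minimum count of 10, TMM, glmQLFit robust, glmQLFTest) in R 4.3.3, all 6 libraries, no covariate, Benjamini-Hochberg adjustment over 13014 genes, 2-sided. Alternatives used DESeq2 1.42.0, limma 3.58.1 on log2(FPKM + 1) and log2(FPKM + 0.1), other scalings and filters, and each library left out. Library totals of 11961726 to 12423220 counts limit genes with few counts. Intervals are exact at 95% and cover counting error only. Floors put 3 counts in place of 0 for the HAS2_Tg group, scaled for library size, and are not exact bounds. On simulated data with 200 changed genes, 12849 genes tested, the fit recovered 59.2% of 1.5-fold, 87.5% of 2-fold and 100% of 4-fold changes.

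Coding sequences came from GENCODE M21 and promoters from RefSeq. The members and the 18 gene lists were chosen with earlier results of these data known. Named were the 10 members, Has2, every other CC ligand and receptor with a count (1 receptor gene and the coding stretch of Ccl3 are not reported here), the 3 tested genes with the smallest adjusted p of each other list, and the 3 nearest profiles of each tested member; Il1b, Tnf, Xist, Ddx3y, the markers named for being at 0 in HAS2_Tg and the named neighbours of the clusters were chosen after their values were seen.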

Additional observations from a re-analysis of the deposited data

How the results depend on the processing

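No paired analysis was possible because the groups share no replicate numbers. All 7 tested members kept their direction and their call in each of 18 alternatives that tested them, with log2 fold changes of -4.41 to -4.22 for Ccl2, -4.13 to -3.84 for Ccl7, -8.02 to -6.76 for Ccl6, -3.46 to -2.50 for Ccl9, -1.90 to -1.34 for Ccl5, -6.84 to -3.11 for Ccl3 and -7.69 to -2.08 for Ccl4. The count of CC chemokine ligand members called lower was 4 with a stricter filter, which did not test Ccl3, Ccl4 and Ccl5, and 9 without a filter. The summed CC chemokine ligand level was -4.40 in log2 and -4.57 with total counts. With each library left out, the summed CC chemokine ligand level ran from -4.43 to -4.36.

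Scaling by total counts moved the median of all tested genes by -0.17 and gave 1477 genes called higher and 4827 genes called lower, against 2625 and 2673. With limma on log2(FPKM + 1) genes called higher were 1380 and genes called lower 4173, on log2(FPKM + 0.1) 1353 and 4101, and without a filter 1334 and 4421. Against a fold of 1.5, genes called were 1597, with genes called higher 552 and genes called lower 1045. With each library left out, genes called ran from 4188 to 5624, genes called higher from 2034 to 2727 and genes called lower from 2144 to 2897.

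Uncalled genes near 0 changed sign. Ccrl2 was -0.04 with total counts, and -0.04, -0.05 and -0.04 with the 3 limma fits. Taf15 was -0.07 in the same 4 fits. Zbtb46 was -0.03 with total counts and -0.04, -0.05 and -0.04 with limma. Ackr4 was -0.17 with total counts, -0.05 with limma without a filter, -0.0 with DESeq2 size factors and with upper-quartile factors, and -0.13 to 0.15 with libraries left out. The cause was not tested. Of 612 counts over the other lists, 541 stayed within 1.5 times and 71 moved. Ccl8, Ccl11 and Ccl24 are limited by depth.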
